A study of Mus musculus with 10 samples.

Results

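Tnf, the gene for the inflammatory cytokine tumor necrosis factor, and 9 genes of the NF-κB system around it were followed through single cell RNA profiles of mouse microglia. The 10 members were taken by symbol. They are Tnf, the inhibitors Nfkbia and Tnfaip3, the NF-κB-induced gene Nfkbiz, the TNF-induced gene Tnfaip2, and the 5 NF-κB subunit genes Nfkb1, Nfkb2, Rel, Relb and Rela. They are 10 of the 18292 gene symbols listed over the 10 libraries. Each member had counts in each library and each passed the filter on low counts. The microglia were from C57BL/6 mice and were sorted as live CD11b high, CD45 intermediate cells on ice. Adult microglia came straight from adult brain, with no culture. Slice microglia came from brain slices of neonatal pups (postnatal day 1 to 4) kept in culture for 1 day, 1 week or 3 weeks. *In vitro* microglia came from mixed glial cultures of pups at postnatal day 2, and were collected from the culture medium at day 22. Each of the 5 groups had 2 libraries, and no inflammatory agent was added to any group. Slicing is itself an injury: the paper attributes an early inflammation of the slices, which later subsided, to mechanical damage during their preparation. Cultured microglia began as neonatal cells and the adult cells were never cultured, so age and culture cannot be told apart in any comparison with adult microglia. For slice microglia, slicing cannot be told apart from age and culture either, and its part in the results was not tested.

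NF-κB is a family of dimeric transcription factors that wait in the cytoplasm bound to inhibitor (IκB) proteins. Signals such as TNF or bacterial products activate a kinase complex that removes the inhibitor, and the freed dimers enter the nucleus and switch on inflammatory genes, Tnf among them. The same dimers switch on their own brakes, such as IκBα (Nfkbia) and the ubiquitin-editing enzyme A20 (Tnfaip3), so the pathway is known for its feedback, and in microglia it is a main route to cytokine production.

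Promoters of 7 members were listed in the RefSeq table used here (GRCm38.p6), and those of Nfkbiz, Nfkb1 and Relb were not analysed here. The 250 bases before each start were searched on both strands for the κB consensus, the DNA motif bound by NF-κB dimers. A match was found in 1281 of 32851 such windows (3.90%), or in at least 1 window of 1204 of 27025 genes (4.46%), and in at least 1 window of 4 of the 7 members (Nfkb2 and Tnfaip3 have several listed starts): Nfkbia, Nfkb2, Rel and Tnfaip3. Tnf, Tnfaip2 and Rela had none of these letters in their windows, which says nothing of sites elsewhere. Shown here are the promoter of the inhibitor that feeds back on NF-κB, that of a subunit gene with the most matches, and that of the cytokine itself, each 5′ to 3′ along its gene with κB matches in capitals. The Nfkbia window is chr12:55492648-55492897, minus strand, with 1 match that starts 29 bases before the gene start. The Nfkb2 window is chr19:46304487-46304736, plus strand, before the first of its listed starts, with 3 matches, of which those at 39 and 38 bases before the start overlap and the third lies at 11 bases. Only 14 of the windows searched (0.0426%) held 3 or more. The Tnf window is chr17:35202008-35202257, minus strand.
Nfkbia: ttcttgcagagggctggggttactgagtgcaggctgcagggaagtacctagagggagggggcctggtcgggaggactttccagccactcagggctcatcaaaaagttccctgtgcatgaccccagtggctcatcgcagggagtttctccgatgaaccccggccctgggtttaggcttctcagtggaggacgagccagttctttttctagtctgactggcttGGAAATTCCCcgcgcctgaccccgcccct
Nfkb2: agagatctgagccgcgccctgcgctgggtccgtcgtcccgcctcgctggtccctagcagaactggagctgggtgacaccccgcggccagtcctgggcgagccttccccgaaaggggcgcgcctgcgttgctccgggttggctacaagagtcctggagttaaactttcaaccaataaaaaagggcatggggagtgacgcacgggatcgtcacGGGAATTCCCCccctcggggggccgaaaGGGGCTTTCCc
Tnf: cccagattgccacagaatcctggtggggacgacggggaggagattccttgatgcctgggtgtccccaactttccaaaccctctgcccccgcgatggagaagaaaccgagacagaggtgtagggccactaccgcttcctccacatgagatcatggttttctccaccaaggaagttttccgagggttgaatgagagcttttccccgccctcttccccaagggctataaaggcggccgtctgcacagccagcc

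Tnf mRNA also carries AU-rich elements, sites where decay factors such as Zfp36 (tristetraprolin) bind and shorten the life of the message. The core searched, TTATTTATT in DNA letters and on the transcript strand only, occurred 5 times in the Tnf transcript, with overlaps. Among 53477 protein-coding transcripts, 2.13% held it in their last 500 bases. The 30 bases around the first matches, in the 3′ UTR at chr17:35199682-35199711 on the minus strand of GRCm38, are given with the cores in capitals.
Tnf 3′ UTR site: cttaTTATTTATTATTTATTTATTatttat

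After filters, 19059 of 19637 cells were kept, with 61 to 3799 cells and 385373 to 39689540 UMIs (molecules counted by their unique tags) per library. The median cell held 1858 UMIs in adult replicate 2, the shallowest library, and up to 13966 in the *in vitro* ones. The slice 1 week group was the smallest, with 148 and 61 cells, so its values are the least precise. Markers of microglia were all found in each library (8 of 8 genes), with a summed level of 41732 to 42827 CPM (counts scaled to a common library total) in adult and 3319 to 18041 CPM in cultured libraries. Neutrophil markers stood apart: cells with over 2% of their UMIs in such markers were 13.1% and 10.8% of the slice 1 day libraries, 16.2% and 1.64% of the slice 1 week libraries, and 0 elsewhere, and all 10 markers were found in both slice 1 day libraries and in slice 1 week replicate 1. Monocyte markers summed to 164 and 377 CPM in slice 1 day and 869 CPM in slice 1 week replicate 1, and to at most 7.18 CPM elsewhere. Red blood cell markers summed to 3460 CPM in slice 1 day replicate 1 and 1846 CPM in adult replicate 1, and to at most 1.02 CPM elsewhere. Border macrophage markers summed to 5.74 to 11.1 CPM in adult, 45.5 to 316 CPM in slice and 2132 to 2270 CPM in *in vitro* libraries. Values without the neutrophil-marker and monocyte-marker cells are given where a member's call changes. For a list they are given where a count printed here moves by over 1.5 times, and for the lists highest in slice 1 day. The part of border macrophages and red blood cells in the results was not tested. The labels give 2 study numbers, one shared by adult replicate 1 and slice 3 weeks replicate 1 and the other by the remaining 8 libraries. Of the barcodes, 218 occurred in more than 1 library, at most 21 in a pair, and no such pair of cells had the same counts.

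Levels are CPM scaled by TMM, a method that corrects for differences in composition, and were taken from UMIs summed over the cells of each library. A gene was called where edgeR's quasi-likelihood test gave an adjusted p under 0.05 over all 12157 genes and the fold change was above 1.5. With 2 libraries a group, n is 2 for each mean, and errors are SDs for levels and SEs for log2 fold changes. Where a library is left out, its group has 1 library, which is assumed to vary like the libraries of the other groups, and the p rests on their spread. Tools that scale otherwise move all genes: the median log2 fold change shifted by -0.08 to -0.30 with library size alone, and against adult microglia by 1.09 to 2.16 for UMIs per cell left unscaled, since cultured cells gave more UMIs.

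**Figure D1:**
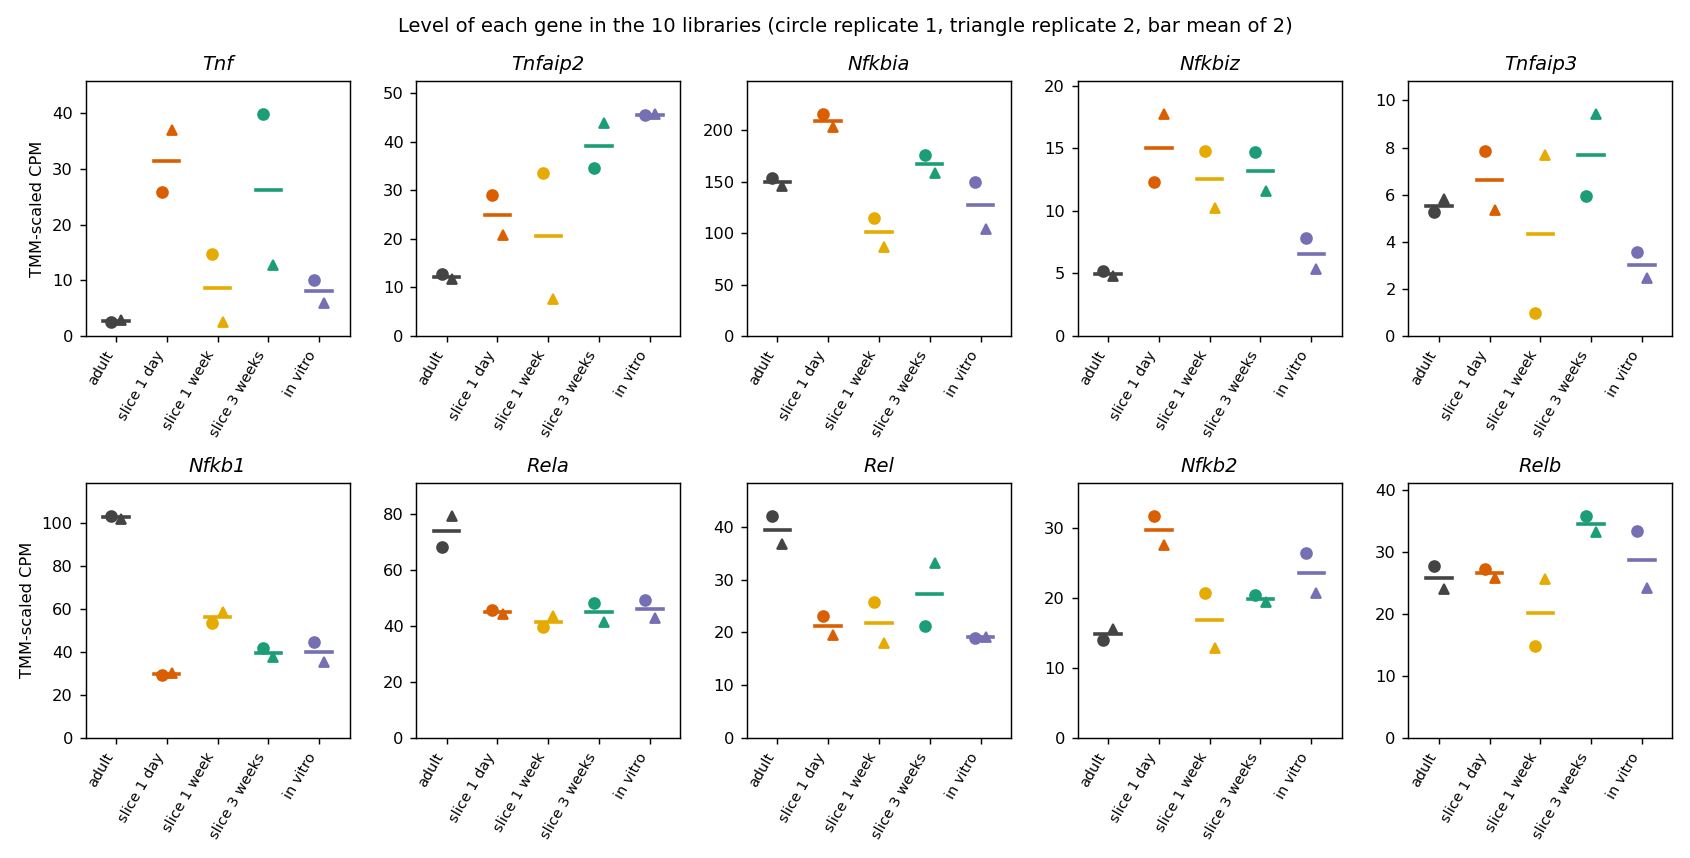
Level of each member in the 10 libraries, in TMM-scaled CPM on linear axes that start at 0; circles are replicate 1, triangles replicate 2 and bars the mean of both. Tnf and Nfkbiz were at their lowest group mean in adult microglia, where Nfkb1, Rela and Rel were at their highest (unscaled UMIs per cell put Rela and Rel above adult in all 4 cultures, and Nfkb1 in slice 1 week and *in vitro*), and the replicates of slice 1 week lay far apart for Tnf, Tnfaip2 and Tnfaip3.

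Tnf was nearly silent in adult microglia and was higher after culture. Its level was 2.49 and 2.83 CPM in the adult libraries, which rest on 34 and 22 UMIs. It was 25.9 and 37.0 CPM in slice 1 day, 14.8 and 2.56 CPM in slice 1 week, and 39.8 and 12.8 CPM in slice 3 weeks. In *in vitro* microglia it was 10.1 and 5.95 CPM. Thus 7 of the 8 cultured libraries lay above both adult libraries, and the exception, slice 1 week replicate 2, held a single Tnf UMI. Tnf rose by 3.59 ± 0.57 on the log2 scale in slice 1 day relative to adult (adjusted p = 0.000435, edgeR), by 3.28 ± 0.57 in slice 3 weeks (adjusted p = 0.00125) and by 1.60 ± 0.56 *in vitro* (adjusted p = 0.0324). The slice 1 week value, 2.06 ± 0.94, did not pass (adjusted p = 0.125). It depended on the setting: without slice 1 week replicate 1 it was -0.01, while it was called higher by DESeq2 (adjusted p = 0.0183), with no filter on low counts (adjusted p = 0.000134), with the study number as a covariate (2.76, adjusted p = 0.0449), as unscaled UMIs per cell (3.22) and without either slice 3 weeks library (adjusted p = 0.0451 without replicate 1 and 0.0470 without replicate 2). The *in vitro* call was lost without adult replicate 1, without adult replicate 2 or without *in vitro* replicate 1 (log2 1.59, 1.68 and 1.29, adjusted p = 0.136, 0.0911 and 0.116), and with library size alone (adjusted p = 0.0689).

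Within each study number, slice 3 weeks was above adult for Tnf by 4.0 on the log2 scale for the first and 2.18 for the second, with 1 library a side. Tnf fell by 1.68 ± 0.47 on the log2 scale *in vitro* relative to slice 3 weeks (adjusted p = 0.0181). This call was lost in 4 alternatives: as unscaled UMIs per cell the value was -0.69 (adjusted p = 0.114), without slice 3 weeks replicate 1 the value was -0.60 (adjusted p = 0.177), with the study number as a covariate it was -0.95 (adjusted p = 0.109), and without *in vitro* replicate 2 it was -1.28 (adjusted p = 0.151). Slice 3 weeks and slice 1 day did not differ in Tnf beyond their spread (log2 -0.31 ± 0.47, adjusted p = 0.651), but without slice 3 weeks replicate 1 the value was -1.33 (adjusted p = 0.0165). In order of mean level, slice 1 day came first, then slice 3 weeks, slice 1 week, *in vitro* and adult, and of these neighbours only the last pair differed by the test.

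Tnf UMIs were found in few cells, a share that depends on depth and does not limit how many cells express the gene. To compare libraries of unequal depth, each cell was thinned at random to 1800 UMIs and shallower cells were left out (413 and 1618 in the adult libraries, 0 to 51 in each of the others). Of the thinned cells, 0.473% (95% exact binomial interval 0.270 to 0.766) and 0.576% (0.288 to 1.03) of adult cells had a Tnf UMI, relative to 4.27% (2.66 to 6.45) and 4.64% (3.43 to 6.12) in slice 1 day. The share was 6.02% (4.70 to 7.57) and 2.30% (1.84 to 2.84) in slice 3 weeks, and 1.53% (1.08 to 2.10) and 0.858% (0.544 to 1.28) *in vitro*. In slice 1 week it was 2.88% (0.790 to 7.20), and 0 of 52 cells, which allows a share of up to 5.77% at a floor of 3 counts (the exact upper bound is 6.85%). The intervals cover counting error only. Thus the slice 1 day and slice 3 weeks libraries lay above both adult libraries, and *in vitro* replicate 2 was within the interval of adult replicate 2. Unthinned, the shares were 0.842% and 0.624% in adult, 13.9% and 18.5% in slice 1 day, 6.76% and 1.64% in slice 1 week, 13.4% and 5.43% in slice 3 weeks, and 8.32% and 5.70% *in vitro*. No cell type that should lack Tnf was at hand in these sorted libraries, so a share set by free RNA was not measured.

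Tnf counts were also concentrated within the cells that had them. Without thinning, 4 of 1014 cells held 95 of the 359 Tnf UMIs of slice 1 day replicate 2 (26.5%), each with at least 10, and the top cell had 37. In slice 3 weeks replicate 1, 5 of 1153 cells held 84 of the 308 Tnf UMIs (27.3%), and the top cell gave 33 Tnf UMIs out of 2575 in all. The adult cells had at most 3 each. Both libraries had the highest Tnf level of their group.

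**Figure D2:**
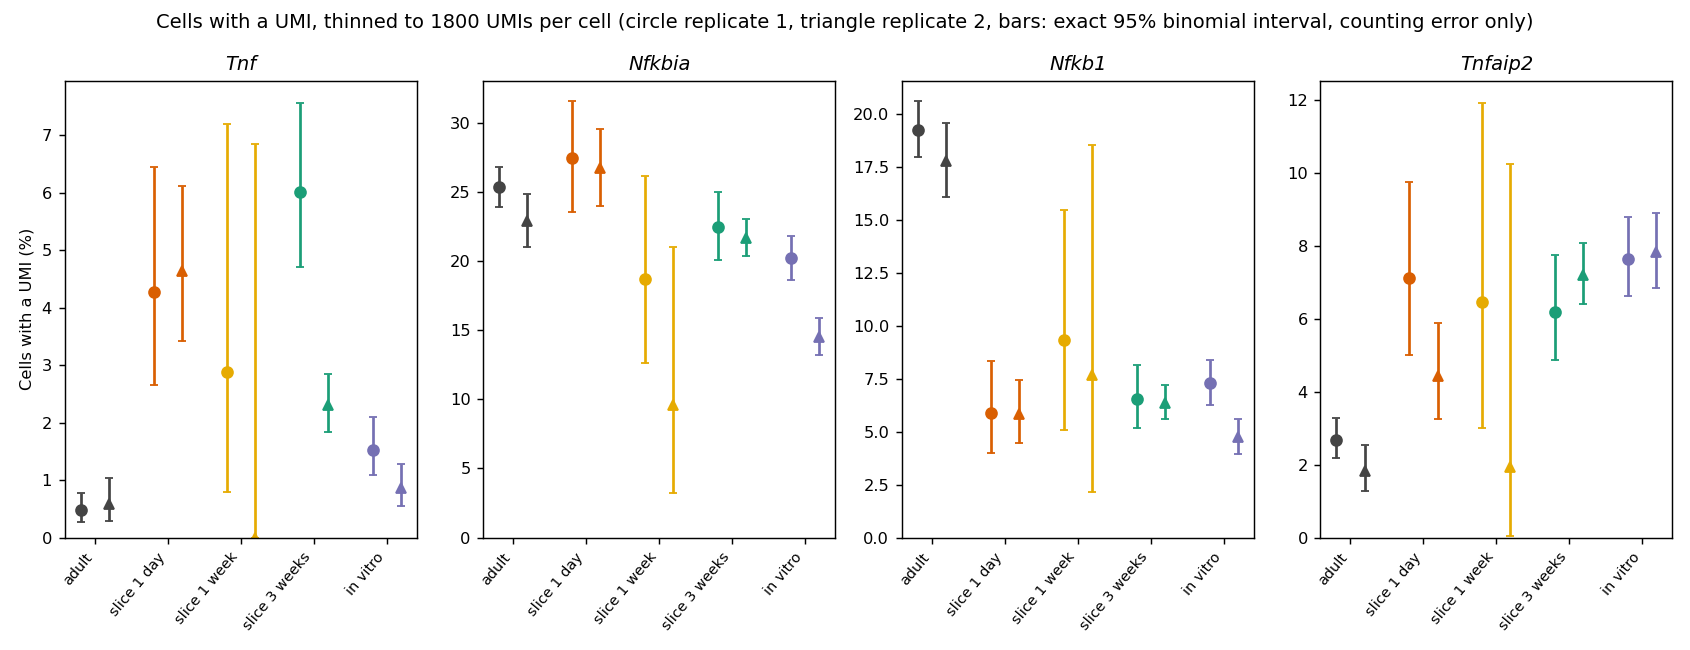
Percent of cells with at least 1 UMI of Tnf, Nfkbia, Nfkb1 and Tnfaip2 in each library after each cell was thinned to 1800 UMIs; circles are replicate 1, triangles replicate 2, and bars the exact 95% binomial interval. For Tnf the adult libraries sit at 0.473% and 0.576%, and for Nfkb1 at 19.3% and 17.8%, above the 8 cultured libraries (4.74% to 9.35%), whose intervals are widest in slice 1 week.

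Nfkbia encodes IκBα, the inhibitor that holds NF-κB dimers in the cytoplasm and is resynthesised on activation. It was the member with the most UMIs in all libraries, at 154 and 146 CPM in adult microglia. Its level was 216 and 204 CPM in slice 1 day, 115 and 87.0 CPM in slice 1 week, 176 and 158 CPM in slice 3 weeks, and 150 and 104 CPM *in vitro*. Both slice 1 day libraries were above all others, and both slice 1 week libraries below both adult ones. Relative to adult microglia, the slice 1 day difference of 0.48 ± 0.19 on the log2 scale had an adjusted p of 0.0474 but stayed under the fold limit at 1.40-fold, and reached it in thinned cells (0.69, adjusted p = 0.0159). The other cultures gave -0.54 ± 0.21 at 1 week, 0.16 ± 0.18 at 3 weeks and -0.24 ± 0.18 *in vitro*, none of them called. As unscaled UMIs per cell Nfkbia was called higher than adult in slice 1 day (2.02), slice 3 weeks (1.26) and *in vitro* (1.92), but not in slice 1 week (0.64). Among the cultures Nfkbia fell by 1.03 ± 0.21 on the log2 scale from slice 1 day to slice 1 week (adjusted p = 0.0131). Its slice 1 week level rests on 116 and 34 UMIs. Nfkbia was also lower *in vitro* than in slice 1 day (-0.72 ± 0.19, adjusted p = 0.0122). Neither of these comparisons was rerun with other settings or with a library left out.

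Part of the Nfkbia count in slice 1 day came from neutrophil-marker cells. In these 68 and 110 cells its level was 705 and 368 CPM by library size, relative to 201 and 194 CPM in the other cells of the same libraries. They held 14.7% and 13.9% of its UMIs. In slice 1 week replicate 1 such cells held 28.4% of its UMIs, at 223 CPM next to 89.0 CPM in the other cells. Without neutrophil-marker and monocyte-marker cells, Nfkbia in slice 1 week was called lower than in adult microglia (log2 -0.75, adjusted p = 0.0143), as it was with library size alone (-0.76, adjusted p = 0.0177) and with no filter on low counts (-0.60, adjusted p = 0.0206).

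Nfkbiz encodes IκBζ, a nuclear IκB protein that is itself induced by NF-κB and shapes which secondary genes are read. It was scarce, with 5.20 and 4.77 CPM in adult microglia. It was 12.3 and 17.7 CPM in slice 1 day, 14.8 and 10.2 CPM in slice 1 week, and 14.7 and 11.6 CPM in slice 3 weeks, so that all 6 slice libraries lay above the adult ones. *In vitro* microglia had 7.84 and 5.33 CPM, just above the adult level. Nfkbiz rose by 1.61 ± 0.29 (adjusted p = 0.00086), 1.41 ± 0.43 (adjusted p = 0.0296) and 1.38 ± 0.28 (adjusted p = 0.00311) on the log2 scale in slices at 1 day, 1 week and 3 weeks relative to adult, while the *in vitro* difference was 0.39 ± 0.28 (adjusted p = 0.248). The contrast between cultures was tested directly: Nfkbiz fell by 0.99 ± 0.26 *in vitro* relative to slice 3 weeks (adjusted p = 0.0124), but not without *in vitro* replicate 2 (-0.66, adjusted p = 0.178) or as unscaled UMIs per cell (0.066, adjusted p = 0.899). The 1 week call rests on 15 and 4 UMIs, and was lost without either adult library (adjusted p = 0.0568 without replicate 1 and 0.0757 without replicate 2), without either slice 1 week library (adjusted p = 0.465 without replicate 1 and 0.0519 without replicate 2) and without the neutrophil-marker and monocyte-marker cells (1.19, adjusted p = 0.0653). It was lost too in thinned cells (0.83, adjusted p = 0.626) and with library size alone (adjusted p = 0.0517).

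Tnfaip3 encodes A20, which strips ubiquitin chains from signaling proteins upstream of NF-κB. Its levels were 5.27 and 5.80 CPM in adult, 7.86 and 5.36 CPM in slice 1 day, 0.988 and 7.68 CPM in slice 1 week, 5.95 and 9.41 CPM in slice 3 weeks, and 3.56 and 2.47 CPM *in vitro*. No culture was called against adult (adjusted p from 0.0696 to 0.675), but *in vitro* Tnfaip3 was called lower with library size alone (-1.17, adjusted p = 0.0202) and with the study number as a covariate (-1.09, adjusted p = 0.0399). As unscaled UMIs per cell it was called higher in slice 1 day (1.77), slice 3 weeks (1.57) and *in vitro* (1.31). The one call was between cultures, where Tnfaip3 fell by 1.38 ± 0.36 on the log2 scale *in vitro* relative to slice 3 weeks (adjusted p = 0.0128). That call was lost without slice 3 weeks replicate 2 (-0.92, adjusted p = 0.124), without *in vitro* replicate 2 (-1.05, adjusted p = 0.163) and as unscaled UMIs per cell (-0.27, adjusted p = 0.631).

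Tnfaip2, a gene first found as induced by TNF in endothelial cells, had 12.7 and 11.7 CPM in adult microglia. It had 29.1 and 20.7 CPM in slice 1 day, 33.6 and 7.68 CPM in slice 1 week, 34.5 and 43.7 CPM in slice 3 weeks, and 45.5 and 45.6 CPM *in vitro*. Slice 3 weeks and *in vitro* libraries were therefore all above the adult ones, and slice 1 week replicate 2 (3 UMIs) was below. Tnfaip2 rose by 1.89 ± 0.27 *in vitro* (adjusted p = 0.000202) and by 1.68 ± 0.28 in slice 3 weeks (adjusted p = 0.000936) relative to adult, on the log2 scale. *In vitro* and slice 3 weeks did not differ beyond their spread (0.21 ± 0.25). In slice 1 week the value was 1.02 ± 0.40 (adjusted p = 0.0759). It was called by DESeq2 (adjusted p = 0.0212), with no filter (adjusted p = 0.00701), as unscaled UMIs per cell (2.15) and without slice 1 week replicate 2 (1.42, adjusted p = 0.0113), and was -0.65 without replicate 1. The slice 1 day call (0.99 ± 0.29, adjusted p = 0.0136) was lost without neutrophil-marker and monocyte-marker cells (0.44, adjusted p = 0.129), which were left out together. In the neutrophil-marker cells Tnfaip2 was 233 and 73.8 CPM relative to 20.3 and 16.6 CPM in the other cells. The call was lost as well without adult replicate 2 (0.94) and without slice 1 day replicate 1 (0.76).

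**Figure D3:**
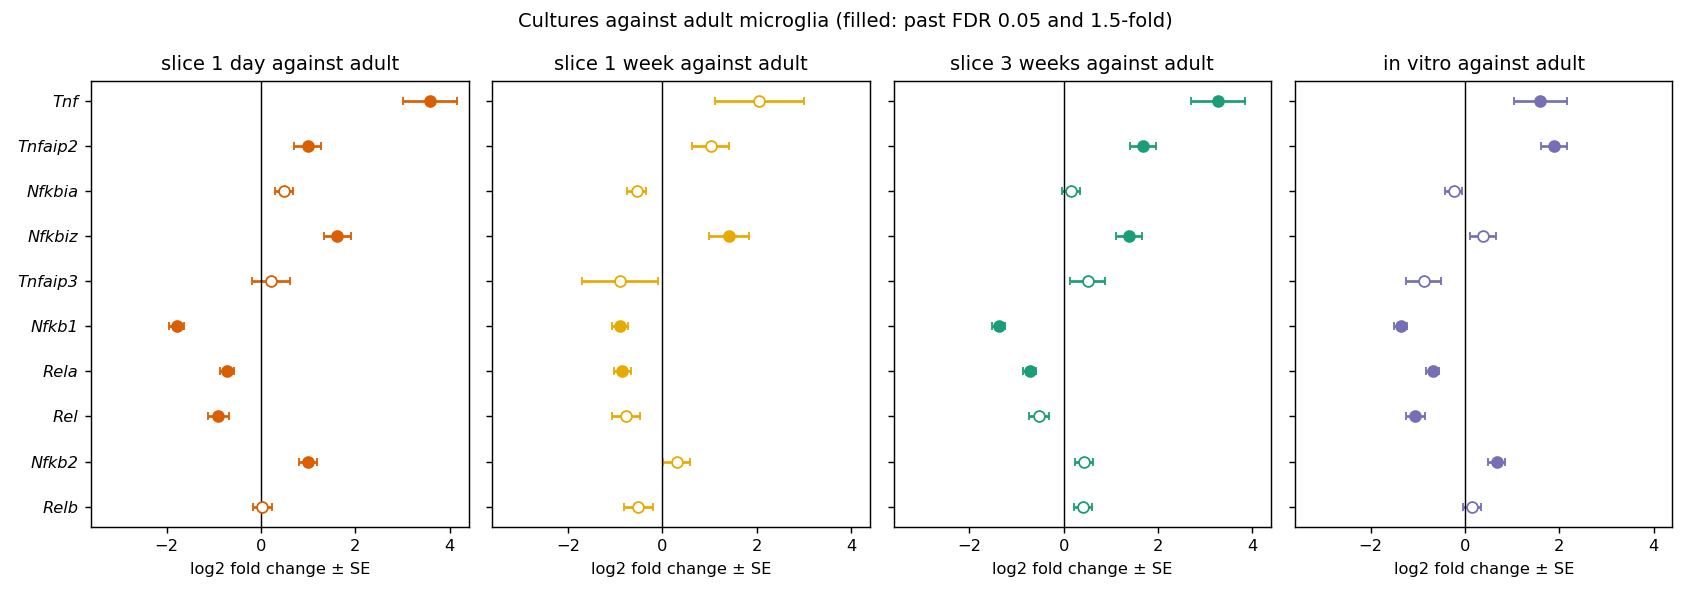
Log2 fold change ± SE of each member in the 4 cultures relative to adult microglia, from 1 edgeR model of all 10 libraries; filled points passed an adjusted p of 0.05 and a 1.5-fold change. Tnf, Tnfaip2 and Nfkbiz lie to the right in all slice panels, whereas Nfkb1, Rela and Rel lie to the left in all 4 (with UMIs per cell left unscaled, Rela and Rel lie to the right in all 4, and Nfkb1 in slice 1 week and *in vitro*); the 4 panels share the same adult libraries.

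Among the subunit genes, Nfkb1, Rela and Rel lay below adult in all 8 cultured libraries by scaled level, and Nfkb2 and Relb did not. Rel was not called in slice 1 week or slice 3 weeks. Nfkb1 encodes p105, the precursor of p50, the subunit without an activation domain of its own. It was 103 and 102 CPM in adult microglia, 29.4 and 30.1 CPM in slice 1 day, 53.4 and 58.8 CPM in slice 1 week, 41.8 and 37.5 CPM in slice 3 weeks, and 44.8 and 35.3 CPM *in vitro*. The adult libraries were above all 8 cultured ones with no overlap. Relative to adult, Nfkb1 fell by 1.79 ± 0.15 on the log2 scale in slice 1 day (adjusted p = 8.39e-06), 0.89 ± 0.18 in slice 1 week (adjusted p = 0.00384), 1.38 ± 0.15 in slice 3 weeks (adjusted p = 6.89e-05) and 1.36 ± 0.14 *in vitro* (adjusted p = 2.2e-05). The slice 1 week call was lost without slice 1 week replicate 1 (-0.78, adjusted p = 0.0906). Nfkb1 was higher in slice 1 week than in slice 1 day by 0.90 ± 0.19 (adjusted p = 0.015), a comparison not rerun with other settings. As UMIs per cell with no scaling, Nfkb1 gave 0.81 *in vitro* and 0.31 in slice 1 week relative to adult, against a median shift of all genes of 2.16 and 1.19. The slice 1 day and slice 3 weeks calls were lost on that scale (-0.24, adjusted p = 0.55, and -0.27, adjusted p = 0.502), where the shift was 1.55 and 1.09. In thinned cells the share with an Nfkb1 UMI was 19.3% and 17.8% in adult and 4.74% to 9.35% in the cultures. At equal depth this share, like CPM, is relative to the other UMIs of a cell. It therefore cannot decide between the scaled and the unscaled values.

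Rela encodes p65, the main activating subunit and partner of p50. It was 68.3 and 79.3 CPM in adult microglia, 45.6 and 44.3 CPM in slice 1 day, 39.5 and 43.5 CPM in slice 1 week, 48.4 and 41.3 CPM in slice 3 weeks, and 49.2 and 42.7 CPM *in vitro*. The 8 cultured libraries were alike and all were below adult. Rela fell by 0.71 ± 0.14 in slice 1 day (adjusted p = 0.00197), 0.85 ± 0.18 in slice 1 week (adjusted p = 0.00639), 0.72 ± 0.14 in slice 3 weeks (adjusted p = 0.00266) and 0.68 ± 0.14 *in vitro* (adjusted p = 0.00193) on the log2 scale, and no neighbouring pair of cultures in the order of means differed. These changes were only 1.60-fold to 1.80-fold. *In vitro* the call ended when any one of 7 libraries was left out, with values of -0.46 to -0.57 (adult replicate 2, slice 1 day replicate 2, both slice 1 week, both slice 3 weeks and *in vitro* replicate 2), in slice 3 weeks without slice 3 weeks replicate 2 (-0.55), and in slice 1 week without slice 1 week replicate 1 (-0.73, adjusted p = 0.145). In thinned cells the *in vitro* value was -0.56, under the fold limit, and the slice 1 week value -0.80 (adjusted p = 0.123), and with no filter the *in vitro* value was -0.51. Unscaled, Rela per cell was above adult by 0.38 to 1.52 in the 4 cultures.

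Rel encodes c-Rel, an activating subunit prominent in immune cells. It was 42.0 and 36.7 CPM in adult, 23.1 and 19.5 CPM in slice 1 day, 25.7 and 17.9 CPM in slice 1 week, 21.2 and 33.1 CPM in slice 3 weeks, and 18.9 and 19.1 CPM *in vitro*. Again all 8 cultured libraries were below both adult libraries. Rel fell by 0.91 ± 0.22 in slice 1 day (adjusted p = 0.00523) and 1.05 ± 0.21 *in vitro* (adjusted p = 0.00141) on the log2 scale, and gave -0.77 ± 0.30 at 1 week and -0.52 ± 0.21 at 3 weeks, which were not called. The slice 1 day call was lost without adult replicate 1 (-0.76, adjusted p = 0.0513) and without slice 1 day replicate 2 (-0.71, adjusted p = 0.0839). At 3 weeks a call appeared without slice 3 weeks replicate 2 (-0.84, adjusted p = 0.00546) and with library size alone (-0.73, adjusted p = 0.0135). At 1 week calls appeared with library size alone (-0.99, adjusted p = 0.0211), with no filter (-0.84, adjusted p = 0.0179) and without either slice 3 weeks library (adjusted p = 0.0212 without replicate 1 and 0.0223 without replicate 2). Rel per cell, unscaled, was above adult by 0.39 to 1.10.

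Nfkb2 encodes p100, the precursor of p52 and an inhibitor of RelB dimers in the non-canonical branch. Its level was 14.0 and 15.6 CPM in adult, 31.7 and 27.6 CPM in slice 1 day, 20.8 and 12.8 CPM in slice 1 week, 20.4 and 19.4 CPM in slice 3 weeks, and 26.4 and 20.8 CPM *in vitro*. All but slice 1 week replicate 2 were above adult. Nfkb2 rose by 1.00 ± 0.19 in slice 1 day (adjusted p = 0.00134) and by 0.68 ± 0.18 *in vitro* (adjusted p = 0.00912) on the log2 scale. It gave 0.30 ± 0.28 in slice 1 week (adjusted p = 0.462) and 0.43 ± 0.19 in slice 3 weeks (adjusted p = 0.0915), which were not called. As unscaled UMIs per cell both were called higher (1.495 and 1.546). The part of κB matches in the level of any member was not tested. The *in vitro* call was lost with library size alone (0.37, adjusted p = 0.107) and without *in vitro* replicate 1 (0.62, adjusted p = 0.0543). Relb, its partner in that branch, was 27.7 and 24.1 CPM in adult, 27.3 and 25.9 CPM in slice 1 day, 14.8 and 25.6 CPM in slice 1 week, 35.8 and 33.2 CPM in slice 3 weeks, and 33.3 and 24.2 CPM *in vitro*. Relb was called in 0 of the 6 comparisons that DESeq2 also tested, by either tool, and in 0 of them at an unadjusted p under 0.05, with log2 values from -0.51 ± 0.30 to 0.41 ± 0.19. In the other 4 pairs of groups edgeR called it in 0 as well, with an unadjusted p under 0.05 in 2: slice 3 weeks relative to slice 1 week (0.91 ± 0.29, adjusted p = 0.10) and *in vitro* relative to slice 1 week (0.65 ± 0.29, adjusted p = 0.164). As unscaled UMIs per cell Relb was called higher than adult in slice 1 day (1.56), slice 3 weeks (1.49) and *in vitro* (2.30), and higher *in vitro* than in slice 3 weeks (0.81).

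The messages of inhibitor and subunit can also be set against each other within each library, where no scaling enters. There were 1.49 and 1.43 Nfkbia UMIs per Nfkb1 UMI in adult microglia and 7.35 and 6.77 in slice 1 day. The ratio was 2.15 and 1.48 in slice 1 week, 4.22 and 4.22 in slice 3 weeks, and 3.34 and 2.96 *in vitro*. Slice 1 week replicate 2 alone overlapped the adult values. These ratios include the neutrophil-marker cells. In slice 1 day such cells held 121 Nfkbia and 5 Nfkb1 UMIs in replicate 1, and 274 and 21 in replicate 2. The other cells of these libraries held 702 and 107, and 1702 and 271. In slice 1 week replicate 1 neutrophil-marker cells held 33 and 3, next to 83 and 51 in the other cells.

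Counted over the members, the slice 1 day comparison with adult called the most. There, 4 of 10 members were higher and 3 lower, where 24.9% and 25.3% of all genes were (50.2% in either direction). *In vitro* relative to adult, 3 were higher and 3 lower, next to 22.4% and 28.5% of all genes (50.8% in either direction). Slice 3 weeks had 3 higher and 2 lower (17.9% and 17.5% of all genes, 35.4% in either direction), and slice 1 week 1 higher and 2 lower (15% and 13.6%, 28.6% in either direction). These counts are near the background, so their number is not a result about the members. Slice 1 week had no call left without its replicate 1, and 5 without slice 3 weeks replicate 1 or without slice 3 weeks replicate 2. The median log2 fold change of the members was 0.35, -0.04, 0.42 and -0.52 in the same order of cultures, next to -0.06, -0.11, -0.03 and -0.08 for all genes tested. All 4 comparisons share the adult libraries. The split depended on the scaling. As unscaled UMIs per cell, 8 members were higher in slice 1 day (67.9% of all genes), 4 in slice 1 week (44%), 7 in slice 3 weeks (55.9%) and 10 *in vitro* (80.3%), with 0 lower in each, where 3.49%, 1.35%, 2.76% and 4.7% of all genes were lower. With library size alone, 0 were higher and 4 lower in slice 1 week (12.5% and 20.6% of all genes), 3 and 3 in slice 3 weeks (14% and 25.2%), and 1 and 4 *in vitro* (16.6% and 38.8%).

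Between cultures, *in vitro* microglia had 0 members higher and 3 lower than slice 3 weeks: Tnf, Nfkbiz and Tnfaip3. Of all genes 13.3% were higher and 19.9% lower (33.2% in either direction). The number of members called is thus near the background and is not a result about the members. No member was higher at an unadjusted p under 0.05 either, nor by DESeq2, which called 3 members in all. As unscaled UMIs per cell the split turned: 5 members were higher (Nfkb1 1.08, Nfkb2 1.32, Relb 0.81, Rela 1.10 and Tnfaip2 1.3) and 0 lower, next to 52.7% and 5.54% of all genes. Without *in vitro* replicate 2 none of the 3 calls was left. The median over members was -0.33, next to -0.10 for all genes. Rel, at -0.53 and not called, was called lower with library size alone (-0.63, adjusted p = 0.0277), with the study number as a covariate (-0.62, adjusted p = 0.0369) and without slice 3 weeks replicate 1 (-0.72, adjusted p = 0.00419). From slice 1 day to slice 3 weeks edgeR called 0 of 10 members, where 13.9% of all genes were higher and 12.8% lower (26.7% in either direction). DESeq2 called 0 as well, and 3 members had an unadjusted p under 0.05. Without slice 3 weeks replicate 1, which has the highest Tnf level, 4 were called (Tnf -1.33, Nfkb2 -0.61, Rel 0.66 and Tnfaip2 0.85), and 1 without slice 1 week replicate 1 or without slice 1 week replicate 2. Without neutrophil-marker and monocyte-marker cells 2 were called, Nfkb2 (-0.61) and Tnfaip2 (1.24).

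Within a library, cells with a Tnf UMI were set beside cells without one, after thinning to 1800 UMIs. Tnf-positive cells were 21 to 85 in the 6 libraries of slice 1 day, slice 3 weeks and *in vitro* that had at least 20. The values are descriptions, since cells of 1 library are not replicates. Nfkbia was higher in Tnf-positive cells in 6 of 6 libraries, with 1.18 to 3.47 times the UMIs per cell and a median of 2.35. In slice 3 weeks replicate 1 there were 1000 Nfkbia UMIs per 1000 Tnf-positive cells (exact 95% Poisson interval 777 to 1268) and 288 per 1000 others. In slice 3 weeks replicate 2 the values were 941 (746 to 1171) and 299.7. Replicate 1 of slice 1 day, at 524 (262 to 937) and 444, did not differ beyond its counting error. Nfkbiz was higher in Tnf-positive cells in 5 of 6 libraries (median 3.48 times), on 0 to 7 UMIs each. Rela lay near 1, with a median of 1.11 and 0.572 at the lowest. Tnfaip2 was below 1 in 4 of 6, with 3.08 times in slice 3 weeks replicate 1. The ratio of the remaining members rested on few UMIs and included values of 0 for Nfkb1, Rel and Tnfaip3. For genes outside the members, the median ratio was 5.93 for Il1b, 3.01 for Ccl4, 1.20 for P2ry12 and 0.98 for Actb. Il1b and Ccl4 were above 1 in 5 of 6 libraries, P2ry12 in 4 and Actb in 3.

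**Figure D4:**
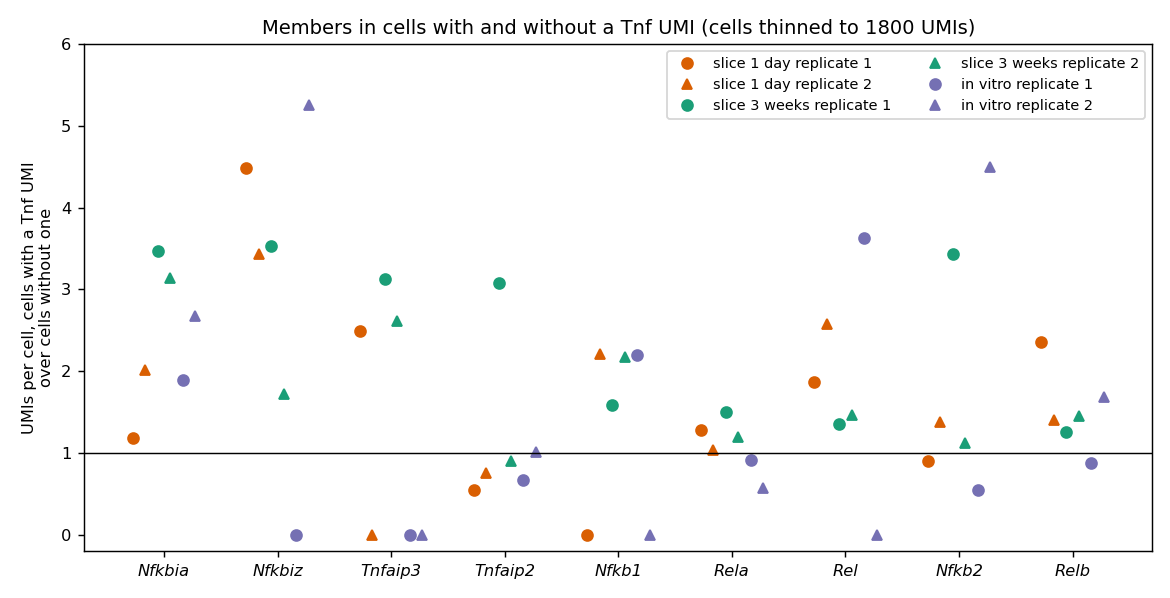
UMIs per cell of each other member in cells with a Tnf UMI, divided by those in cells without one, in the 6 libraries with at least 20 Tnf-positive cells, after thinning to 1800 UMIs; colors give the group and the line marks 1. Nfkbia is above 1 in all 6 libraries (1.18 to 3.47), while Rela scatters around 1 and the scarce members range down to 0.

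Across the 10 libraries, the 5 genes with a pattern most like Tnf, by Pearson's r of log2 CPM among genes with a mean of at least 5 on that scale, were Ccl4 (r = 0.93), Nab2 (0.92), Hat1 (0.91), Nup62 (0.90) and Wdr83os (0.90). Ccl4, the chemokine MIP-1β, was 59.8 and 49.1 CPM in adult, 916 and 1200 CPM in slice 1 day, 222 and 51.2 CPM in slice 1 week, 955 and 627 CPM in slice 3 weeks, and 72.3 and 89.4 CPM *in vitro*. Its *in vitro* level was thus nearer to adult than to slice 1 day or slice 3 weeks. For Nfkbia they were Snd1 (0.92), Utp11l (0.91), Ddx18 (0.90), Mrps10 (0.90) and Nip7 (0.88). Among members, Tnf ran closest to Nfkbiz (r = 0.82) and Nfkb2 (0.79) and opposite to Nfkb1 (-0.77). These are descriptions over 10 libraries that share group and depth.

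The wider pathway was read from 6 fixed gene lists. Of the NF-κB target genes (25 listed, 23 tested), 14 were higher and 5 lower in slice 1 day relative to adult, with a median log2 fold change of 2.09. Of all genes, 24.9% were higher and 25.3% lower. Without neutrophil-marker and monocyte-marker cells, 13 of 22 tested were higher and 4 lower (median 1.86). The neutrophil chemoattractant Cxcl2 had 1029 UMIs in slice 1 day and none in adult, at least 499-fold higher against a floor of 3 counts over both adult libraries. Ptgs2, the prostaglandin synthase COX-2, was at least 31.0-fold higher on the same terms. Both values include the neutrophil-marker and monocyte-marker cells of slice 1 day, as do those of other named list genes unless stated. Il6 and Il1a, both cytokine genes, fell by 2.73 ± 0.49 and 1.38 ± 0.26 on the log2 scale. In slice 3 weeks 11 targets were higher and 2 lower (median 1.12, or 0.87 with genes at 0 in a group placed at their bounds), next to 17.9% and 17.5% of all genes. Gadd45b (4.69 ± 0.57) and the chemokine gene Ccl3 (4.20 ± 0.20) led among genes with adult counts. In slice 1 week 11 were higher and 5 lower (median 0.82, 0.77 with bounds), next to 15% and 13.6% of all genes. *In vitro* the split was 9 higher and 8 lower (median 0.57, 0.36 with bounds), next to 22.4% and 28.5% of all genes: Ier3 rose by 3.41 ± 0.30 and Il1b by 3.36 ± 0.53, while Il1a fell by 6.21 ± 0.32. Set directly against slice 3 weeks, *in vitro* microglia had 2 targets higher, Cxcl2 (2.76 ± 0.56) and Il1b (1.59 ± 0.44), and 14 lower, with a median of -1.40, next to 13.3% and 19.9% of all genes. The summed level of the targets was 879 to 1047 CPM in adult, 4017 to 4292 CPM in slice 1 day, 1318 to 1451 CPM in slice 1 week, 2516 to 3078 CPM in slice 3 weeks and 950 to 1041 CPM *in vitro*, so the *in vitro* sum overlapped adult.

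Other inhibitors of NF-κB (15 tested) had 6 higher and 2 lower in slice 1 day, 2 and 1 in slice 1 week, 4 and 1 in slice 3 weeks, and 5 and 2 *in vitro*. Over all genes, 50.2%, 28.6%, 35.4% and 50.8% were called in either direction in that order, so the number of calls in this list was near the background. Bcl3, an atypical IκB protein, rose by 3.41 ± 0.38, 2.00 ± 0.64, 1.70 ± 0.38 and 2.65 ± 0.37 on the log2 scale in that order of cultures. Irak3, a brake on Toll-like receptor signaling, rose by 2.32 ± 0.36 in slice 1 day and 2.63 ± 0.34 *in vitro*. Nfkbie, which encodes IκBε, fell in each, by 1.19 ± 0.26, 2.40 ± 0.49, 1.01 ± 0.25 and 1.43 ± 0.25. Tnip3, a partner of A20, was not counted in adult microglia and was at least 174-fold higher in slice 1 day, 12.5-fold in slice 3 weeks and 26.2-fold *in vitro*, against the same floor.

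**Figure D5:**
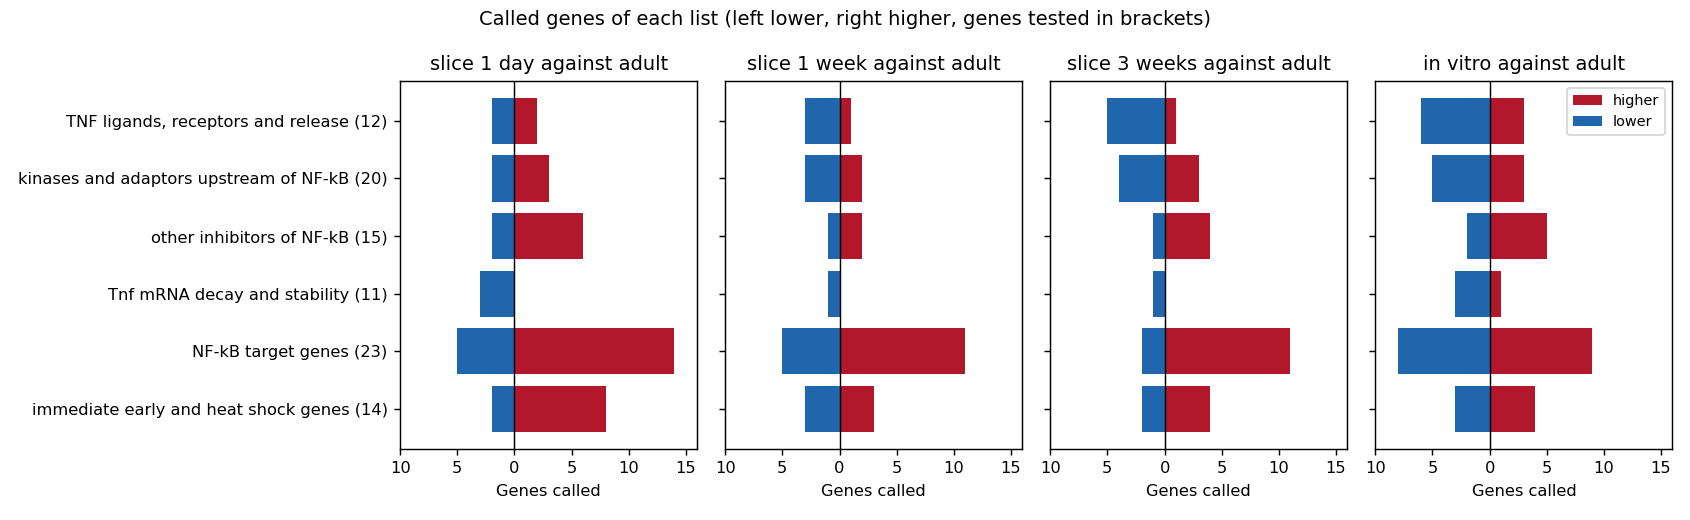
Number of genes of each fixed list called higher (right, red) or lower (left, blue) in each culture relative to adult microglia, with the number of genes tested in brackets. The NF-κB target genes reach 14 higher of 23 in slice 1 day and split 9 to 8 *in vitro*, while the upstream kinases and adaptors stay at 2 or 3 higher and 2 to 5 lower of 20; the panels share the adult libraries.

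Upstream of NF-κB, calls went in both directions. Of 20 kinases and adaptors, 3 were higher and 2 lower in slice 1 day, 2 and 3 in slice 1 week, 3 and 4 in slice 3 weeks, and 3 and 5 *in vitro*, with medians from -0.19 to 0.06. Over all genes, 50.2%, 28.6%, 35.4% and 50.8% were called in either direction in that order. Ikbke, a kinase related to the IκB kinases, had 1 UMI over both adult libraries and 2416 *in vitro*, a ratio of 629 (counting interval 113 to 24872). Its ratio to adult was 481 (85.8 to 19059) in slice 1 day and 262 (46.7 to 10355) in slice 3 weeks. Mapkapk2, the kinase through which p38 stabilises the Tnf message, rose by 1.67 ± 0.17, 1.71 ± 0.21, 1.47 ± 0.17 and 1.53 ± 0.17 on the log2 scale in slices at 1 day, 1 week and 3 weeks and *in vitro*. Of the genes for TNF ligands, receptors and release (12 tested), 2, 1, 1 and 3 were higher and 2, 3, 5 and 6 lower in the same order. Without neutrophil-marker and monocyte-marker cells 5 were lower in slice 1 week, with Ltb (-1.94) and Fadd (-2.29) added, 2 genes chosen after their values were seen. Rhbdf2, which carries the TNF-releasing protease ADAM17 to the cell surface, rose in all 4, by 1.99 ± 0.29, 1.64 ± 0.45, 1.53 ± 0.28 and 1.46 ± 0.28. Traf5, an adaptor of TNF receptors, fell by 2.51 ± 0.22, 1.17 ± 0.28, 1.71 ± 0.20 and 1.98 ± 0.19.

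Genes that act on the stability of the Tnf message, some at sites like the one printed above, were each tested and the calls counted. Of 11 tested by edgeR, 0 were higher and 3 lower in slice 1 day, 0 and 1 in slice 1 week, 0 and 1 in slice 3 weeks, and 1 and 3 *in vitro*. At an unadjusted p under 0.05, 1, 0, 1 and 1 were higher and 5, 2, 3 and 5 lower in that order. Without neutrophil-marker and monocyte-marker cells 2 were lower in slice 3 weeks. Over all genes, 24.9%, 15%, 17.9% and 22.4% were called higher and 25.3%, 13.6%, 17.5% and 28.5% lower. Zfp36 itself fell *in vitro*, by 0.79 ± 0.26 on the log2 scale (adjusted p = 0.0251), and Zfp36l2 fell in slice 1 day, by 1.51 ± 0.30 (adjusted p = 0.00171).

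Immediate early and heat shock genes, which also answer to cell handling, were mostly higher in slice 1 day, as Tnf was. Of 14 tested, 8 were higher and 2 lower relative to adult (median 2.54, or 2.05 without neutrophil-marker and monocyte-marker cells), next to 24.9% and 25.3% of all genes. Among them were Dusp1 (4.37 ± 0.45), Atf3 (3.68 ± 0.23) and Nr4a1 (3.17 ± 0.53), while Btg2 and Jun fell by 2.45 ± 0.28 and 1.35 ± 0.25. Their summed level was 1142 to 1482 CPM in slice 1 day and 1149 to 1321 CPM in adult, and thus overlapped. In slice 3 weeks 4 were higher and 2 lower (median 0.68), in slice 1 week 3 and 3 (median 0.31, or 0.59 with bounds), and *in vitro* 4 and 3 (median 0.35). Called in either direction were 35.4%, 28.6% and 50.8% of all genes in these 3 cultures. From slice 1 day to slice 3 weeks 6 fell and 0 rose by edgeR, next to 12.8% and 13.9% of all genes. At an unadjusted p under 0.05, 7 fell and 1 rose. Dusp1 fell by 3.20 ± 0.41. Their part in the Tnf levels was not tested.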

How the data were processed

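Single cell RNA-seq (10x Genomics 3′ kit, version 2) was done on 10 libraries, 2 for each of 5 groups that the labels call biological replicates. Per the submitters' processing notes, the authors used Cell Ranger 1.3.0 and the mm10 build. The deposited values were raw UMI counts per gene and barcode, with 1 table a library; whether strand was used in counting is not given in the sources used here. The 10 members and all gene lists were chosen with earlier results of these data known. A gene absent from a table was taken as 0. Cells were kept with at most 5% of UMIs from mitochondrial genes, at least 400 genes and at most 30000 UMIs, and doublets were not removed (no caller was run). UMIs summed per library were fitted with edgeR 4.0.16 (R 4.3.3; TMM, filterByExpr with a minimum of 10 counts, glmQLFit and glmQLFTest) in 1 model of 5 groups, with Benjamini-Hochberg adjustment over 12157 genes; the biological coefficient of variation was 18.3%. With 2 libraries against 2, no permutation test can go below p = 0.333, so single values got no test. Shares of cells have exact binomial intervals (scipy 1.17.1). The fit was tested on simulated data. Named genes were all members, up to 3 called genes in each direction a list, and the 5 genes most like Tnf and Nfkbia. Alternatives were other scalings, DESeq2 1.42.0, other filters on genes and cells, thinning, the study number, a replicate block and leaving out each library. Gene positions and transcripts were from GENCODE (GRCm38, the assembly of mm10) and promoters from RefSeq.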

Additional observations from a re-analysis of the deposited data

How the results depend on the processing

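The calls rest on 2 libraries a group, and the slice 1 week group holds only 61 and 148 cells. Same-numbered replicates did not deviate together (correlations of -0.10 to 0.087 between groups), so the numbers do not pair the libraries; with the number as a replicate block the counts of members called were again 6 for *in vitro*, 7 for slice 1 day, 3 for slice 1 week and 5 for slice 3 weeks relative to adult, 3 between *in vitro* and slice 3 weeks, and 0 between slice 3 weeks and slice 1 day. Leaving out each library gave 4 to 6, 6 to 7, 0 to 5, 5 to 5, 0 to 3 and 0 to 4 in that order. UMIs per cell left unscaled gave 10 (all higher) between *in vitro* and adult, 5 (all higher *in vitro*) between *in vitro* and slice 3 weeks, and 1 (lower) in slice 3 weeks against slice 1 day, and library size alone and no filter on low counts each gave 1 in the last. In slice 1 week against adult, DESeq2 gave 5, no filter 7 and thinned cells 1. Without neutrophil-marker and monocyte-marker cells, a rule chosen after seeing the data, slice 3 weeks against slice 1 day gave 2. The planned rule, 3 or more neutrophil or monocyte markers in a cell, could not be run: it left 6 cells in slice 1 day replicate 2 and 0 in slice 1 week replicate 1, libraries in which each cell had at least 0.197% and 0.329% of its UMIs in neutrophil markers. With cells thinned to 1000 UMIs, the mean share with a Tnf UMI was 0.244% in adult, 2.82% in slice 1 day and 0.487% *in vitro*, next to 0.524%, 4.45% and 1.19% at 1800.

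Signs changed as follows. Unscaled UMIs per cell gave, on the log2 scale, Nfkb1 0.81 *in vitro*, 0.31 in slice 1 week; Rel 1.10 *in vitro* and 0.62, 0.39 and 0.52 in slices at 1 day, 1 week and 3 weeks; Rela 1.52, 0.86, 0.38 and 0.41 likewise; Nfkbia 1.92 *in vitro* and 0.64 in slice 1 week, Relb 0.71 in slice 1 week, and Tnfaip3 1.31 *in vitro* and 0.36 in slice 1 week, all against adult. Against slice 3 weeks it gave *in vitro* 0.67 for Nfkbia, 0.066 for Nfkbiz, 0.58 for Rel and 0.81 for Relb, and for slice 3 weeks against slice 1 day -0.035 for Nfkb1, -0.097 for Rel, -0.065 for Relb and -0.20 for Tnfaip3. Library size alone gave Nfkb1 -0.085 and Rela -0.064 *in vitro* against slice 3 weeks, and against adult Nfkbia -0.044 in slice 3 weeks, Relb -0.15 *in vitro* and -0.093 in slice 1 day. Thinned cells gave, against adult, Nfkb2 -0.62 in slice 1 week, Relb -0.093 and Tnfaip3 -0.18 in slice 1 day, and Rela 0.023 and Tnf 0.047 in slice 3 weeks against slice 1 day. No filter gave Rela 0.031 there, and the study number as a covariate gave Tnfaip3 -0.019 in slice 1 day. Leaving out each library changed the sign within these ranges. Against adult they were, *in vitro*, -0.40 to 0.12 for Nfkbia; in slice 1 day, -0.063 to 0.18 for Relb and -0.040 to 0.57 for Tnfaip3; and in slice 1 week, -0.014 to 2.45 for Tnf, -0.18 to 0.46 for Nfkb2, -0.84 to 0.0075 for Relb, -0.65 to 1.42 for Tnfaip2 and -2.51 to 0.50 for Tnfaip3. For *in vitro* against slice 3 weeks they were -0.089 to 0.26 for Nfkb1, -0.43 to 0.028 for Relb and -0.011 to 0.24 for Rela. For slice 3 weeks against slice 1 day they were -1.33 to 0.32 for Tnf, -0.44 to 0.091 for Nfkbiz, -0.13 to 0.12 for Rela and -0.077 to 0.57 for Tnfaip3. The cause was not tested.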
